A study of Mus musculus with 18 samples.

Results

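Distal regions of open chromatin that carry an exact kappaB site, the DNA element bound by NF-kappaB, were followed across 6 conditions in bone marrow-derived macrophages (BMDMs) from Il10-/- mice. A peak of the deposited distal set was a member when the 10-base kappaB consensus (3 G, a purine, any base, A or T, 2 pyrimidines and 2 C) matched on either strand within 250 bp of the peak centre in genome build mm9, with no mismatch. This gave 8438 of the 157614 distal peaks (5.35%), out of 194284 peaks in all. This rule reads sequence and position only, but it was proposed with earlier results of these data known. Macrophages were grown from 3 Il10-/- mice on the C57BL/6J background (12-week-old males), so every group, the controls included, lacked endogenous IL-10. The labels call same-numbered libraries biologically matched, and each mouse was taken to have given 1 library per condition. The conditions without LPS were unstimulated (16 hours in culture), JQ1 (500 nM (+)-JQ1) and IL-10 (10 ng/mL recombinant cytokine). Those with it were LPS (50 ng/mL for 4 hours), LPS + JQ1 and LPS + IL-10, where (+)-JQ1 or IL-10 was added 12 hours before LPS. The paper names vehicle as the control treatment before LPS and untreated, unstimulated cells as a further control. The labels call both the unstimulated and the LPS group untreated, and the part of vehicle was not tested. Il10 is lost in all cells of these animals, the macrophages were differentiated in culture, and accessibility was measured by ATAC-seq in bulk, so that fewer cells with an open region and less opening per cell cannot be told apart.

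NF-kappaB is a family of dimers built from Rela, Relb, Rel, Nfkb1 and Nfkb2 products. In resting macrophages the dimers are held in the cytoplasm by inhibitors such as IkappaB-alpha, and sensing of LPS by Tlr4 leads to destruction of the inhibitor and entry of the dimers into the nucleus, where they bind kappaB sites at promoters and enhancers of cytokine, chemokine, survival and feedback genes. (+)-JQ1 occupies the bromodomains of BET proteins, which read acetylated histones at active enhancers, and IL-10 acts through Stat3 to restrain inflammatory genes in macrophages.

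The kappaB sites in peaks with some of the largest changes are printed with 10 flanking bases on each side, read 5′ to 3′ along the strand on which the consensus matched. Capitals mark the 10-base site, and coordinates are 1-based positions in mm9. The set holds peaks from among the largest rises after LPS, the largest fall after LPS (Cerk), peaks from among the largest falls when (+)-JQ1 or IL-10 preceded LPS, and peaks near feedback and chemokine genes of the pathway.
Irg1, chr14:103459564-103459593, minus strand: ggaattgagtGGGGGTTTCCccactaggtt
Il12b, chr11:44203742-44203771, plus strand: tcatgacagtGGGGTATTCCatcagacaga
Cd40, intergenic, chr2:164900437-164900466, plus strand: ctgtgatgccGGGAGTTCCCtacagtatgg
Il6, chr5:30246966-30246995, plus strand: tagtgtaaaaGGGGATCTCCccttttcttc
Ptgs2, chr1:152045090-152045119, minus strand: gaaaatgtatGGGGTTTTCCccaatatgca
Ccl5, chr11:83345655-83345684, minus strand: gcctttccctGGGAGACTCCattgcacaag
Ccl5, chr11:83345788-83345817, minus strand: atggggggagGGGGGACTCCcaccccttca
Nfkbia, chr12:56585557-56585586, minus strand: tgggtctttgGGGAAATTCCtgtaatgaat
Cxcl2, chr5:91335074-91335103, minus strand: acaaaaacaaGGGAGACTCCagctagtagc
Aoah, chr13:20896764-20896793, plus strand: ccaggaaaaaGGGGTTCTCCatttgtgctg
Fap, chr2:62424207-62424236, minus strand: caactgtgaaGGGACATCCCagctcctgag
Csf1, chr3:107543347-107543376, minus strand: ttagacaacaGGGGCTTTCCtgtttcaggc
Csf1, chr3:107543450-107543479, minus strand: accaaagataGGGACTTCCCtggggagatg
Il15, chr8:84896924-84896953, plus strand: gagatgctttGGGGAATTCCtaagtaacaa
Cerk, chr15:85961391-85961420, minus strand: gcgggtctctGGGGCACCCCctcctgagag

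A further set was chosen for the number of sites. Of all members 3 held 4 separate sites in the window, and near Anks1b and Gm8221 these sites lay in tandem repeats. The stretches from 10 bases before the first site to 10 bases after the last are given for both peaks, with the sites in capitals. The sites stood 65, 63 and 65 bp apart near Anks1b and 20, 21 and 21 bp apart near Gm8221. The first Gm8221 site matched on the minus strand, where its 30 bases (chr15:77455264-77455293) read attcacatgtGGGGCATCCCcattcacatg, and the other 3 matched on the plus strand.
Anks1b, chr10:89767693-89767915, minus strand: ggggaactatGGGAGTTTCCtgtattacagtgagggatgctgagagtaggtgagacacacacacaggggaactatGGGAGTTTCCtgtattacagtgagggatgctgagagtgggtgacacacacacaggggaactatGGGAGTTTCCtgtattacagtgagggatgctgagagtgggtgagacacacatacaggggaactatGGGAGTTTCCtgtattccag
Gm8221, chr15:77455264-77455355, plus strand: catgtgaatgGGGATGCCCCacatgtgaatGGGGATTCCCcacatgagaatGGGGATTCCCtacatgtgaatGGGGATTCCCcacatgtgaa

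Each condition had 3 libraries, and total counts over all peaks ran from 12020526 to 25908198 per library. Values below are counts divided by the TMM-scaled library size and set to the mean scaled library, called normalized counts. TMM factors were 1.04 to 1.24 in the unstimulated libraries and 0.896 to 1.05 in all others, and scaling by total counts instead moved the median log2 fold change of all tested distal peaks by -0.23 for LPS, -0.28 for (+)-JQ1 alone and -0.21 for IL-10 alone. The promoters of all 7 macrophage genes examined (Csf1r, Emr1, Cd14, Itgam, Cd68, Fcgr1 and Mertk) had peaks at 87.1 to 751 normalized counts per kb, above the median promoter peak of 45.7. Of 21 genes that mark other cells, 11 had a promoter peak and 7 of these lay above that median, neutrophil genes with the highest value (290.3), whereas none of 4 T cell genes and none of 2 mast cell or basophil genes had one. The part of other cells in the results was not tested. A peak was called changed at a Benjamini-Hochberg adjusted p under 0.05 and a log2 fold change beyond 0.5 in edgeR's quasi-likelihood fit to all 194230 tested peaks. Of the members, 8436 were tested and 2 were too low in count. The ± after a log2 fold change is its standard error.

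The 8438 members carried 8809 sites. Of these members 8086 had 1 site, 336 had 2, 13 had 3 and 3 had 4, and no site lay in the windows of more than 1 member. Introns held 4190 members (49.7%, against 53.9% of the other distal peaks), intergenic DNA 3702 (43.9% against 40.9%), UTRs 276 and other exons 270. The median member lay 15402 bp from the nearest transcription start site (TSS) of a protein-coding gene and 748 lay more than 100 kb away. Median peak width was 923 bp, against 905 bp for other distal peaks, and median GC content of the window was 48.6% against 46%, a difference to which the GC-rich consensus itself contributes. In promoter peaks of the same tables the site was somewhat more frequent, at 2618 of 36670 (7.14%).

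Members took a larger share of all distal counts after LPS. This share needs no scaling between libraries. It was 5.64%, 5.55% and 5.58% in the 3 unstimulated libraries and 6.39%, 6.20% and 6.17% in the 3 LPS libraries (6.25% ± 0.122, SD, n = 3), a rise of 0.752, 0.648 and 0.587 percentage points in the 3 same-numbered pairs. Pairs 1 and 3 each ran in a single sequencing lane (5 and 6), whereas in pair 2 the lane changed with LPS. With (+)-JQ1 before LPS the share was 6.34%, 6.11% and 6.03%, with differences of -0.0531, -0.0875 and -0.137 points from the paired LPS library, and overlapped the LPS group. IL-10 before LPS gave 5.86%, 5.83% and 5.89%, so that all 3 libraries lay below every LPS library, with differences of -0.529, -0.368 and -0.280 points in the pairs, and above every library without LPS. Either agent alone left the share overlapping that of the unstimulated libraries, with means of 5.64% ± 0.0403 for JQ1 and 5.62% ± 0.0152 for IL-10 (SD, n = 3) against 5.59% ± 0.0455. No p is given for this score, since the members were chosen with results known.

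**Figure D1:**
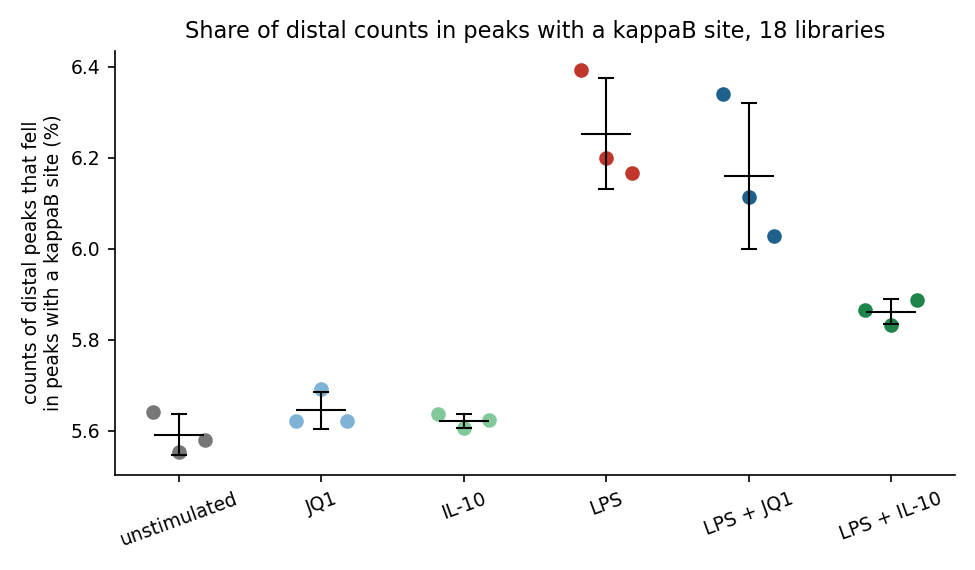
Share of all distal counts that fell in peaks with a kappaB site (percent, y axis) in each of the 18 libraries, by condition (x axis). Points are libraries in the order of replicates 1 to 3, the long line is the group mean and the error bar its SD, and the y axis does not start at 0. The LPS libraries (6.17% to 6.39%) lie above all unstimulated libraries (5.55% to 5.64%), and the LPS + IL-10 libraries (5.83% to 5.89%) lie between.

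After LPS, 1518 members (18%) rose, among them peaks near Irg1, Il6, Il12b, Cd40, Ptgs2, Ccl5 and Nfkbia, and 754 (8.94%) fell. The background over all tested distal peaks was 11.1% higher and 11.0% lower, and over the distal peaks without a site 10.8% and 11.1%. The median log2 fold change was 0.02 for members and -0.08 for the other distal peaks, so the sets differed more in the upper tail than at the centre. The 90th percentile of the log2 fold change was 1.08 for members against 0.74 for other distal peaks, and 958 members had a log2 fold change above 1 and 533 one below -1. With sequencing lane as a covariate 18.2% rose and 8.48% fell. Fits with fewer libraries gave rises of 14.8%, 13.3% and 16.8% of members without replicate 1, 2 or 3, with other distal peaks at 8.60%, 7.39% and 10.1%. The count of falls was less stable, at 4.99% without replicate 1, 3.90% without replicate 2 and 7.59% without replicate 3. Under total-count scaling 12.2% of members rose and 17.6% fell, in place of 18% and 8.94%. This scaling moved the median log2 fold change of all tested distal peaks by -0.23. Members still rose more often and fell less often than other distal peaks under it.

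**Figure D2:**
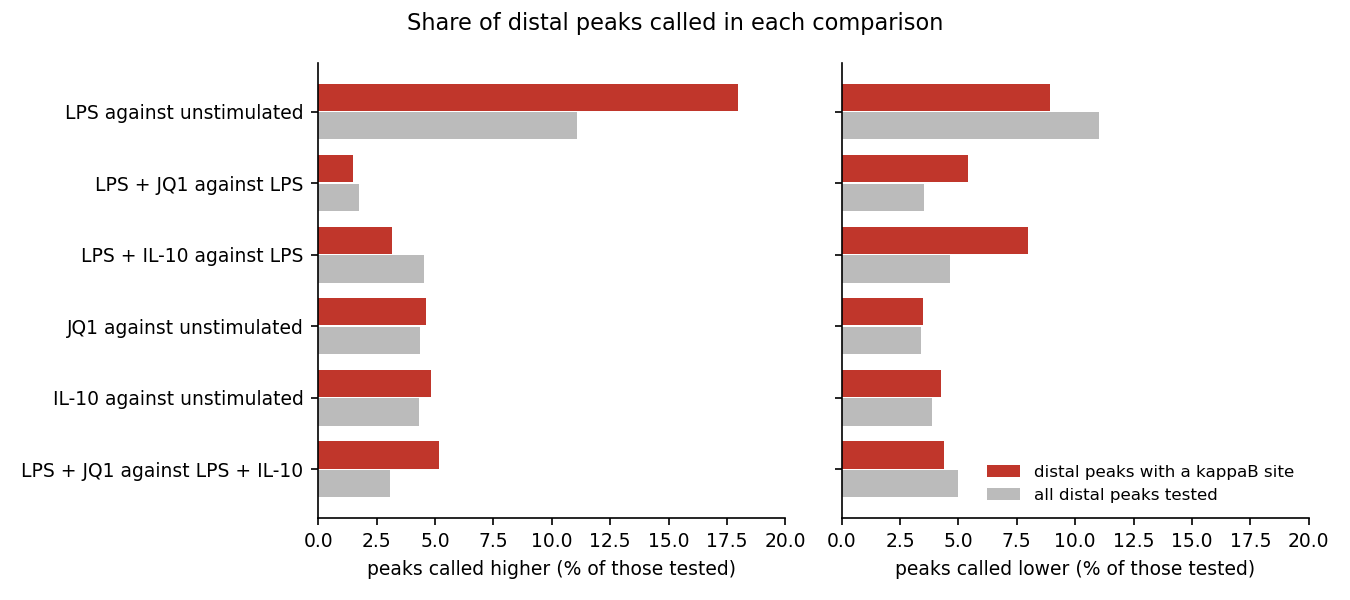
Percent of tested peaks called higher (left, x axis) and called lower (right, x axis) in 6 comparisons (y axis), for distal peaks with a kappaB site and for all distal peaks tested. The widest gap is for rises after LPS, at 18% of members against 11.1% of all distal peaks.

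The largest changes named here are those of called members with a mean of at least 50 normalized counts over the groups compared and the same direction in all 3 pairs. The largest rise was at a 712-bp intergenic peak, chr14:103459082-103459794, 13.2 kb from the TSS of Irg1, which encodes the enzyme that makes itaconate. The peak is named for Irg1 because this gene is on the NF-kappaB list, not because its TSS is the nearest. Normalized counts were 35.2, 37.2 and 49.4 in unstimulated libraries and 680.1, 507 and 559 after LPS (log2 fold change 3.83 ± 0.19, adjusted p = 5.16e-34, edgeR with Benjamini-Hochberg adjustment). The groups lay far apart, with every LPS library above 500 and every unstimulated library at or under 49.4.

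The peak chr11:44203226-44204217, in intergenic DNA 9.84 kb from the TSS of Il12b, rose by a similar degree. Il12b encodes the p40 subunit shared by IL-12 and IL-23. Its counts were 30.2, 44.4 and 59.7 without and 596, 553 and 545 with LPS (3.63 ± 0.18, adjusted p = 9.10e-34 by edgeR), with no overlap. The most accessible of the strong responders was chr2:164899572-164901425, 12.3 kb from the TSS of Cd40, a costimulatory receptor of the TNF receptor family, which went from 95.5, 130.1 and 106 to 1336, 1223 and 1085 (3.45 ± 0.16, adjusted p = 1.96e-35 by edgeR). A peak 92.7 kb from Il6, which encodes a pyrogenic cytokine, and a peak 97.9 kb from Ptgs2, which encodes cyclooxygenase-2, were also among the strongest rises. Both lay at long distances from the nearest TSS of a protein-coding gene. The Il6 peak had 10.1, 9.29 and 11.3 normalized counts without LPS and 139, 121 and 135 with it (3.67 ± 0.33, adjusted p = 9.66e-17), and the Ptgs2 peak 36.5, 24.8 and 34.0 and 482, 357 and 346 (3.65 ± 0.21, adjusted p = 1.04e-29).

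The remaining members of the 10 largest rises had log2 fold changes of 3.20 to 3.68. Near Ccl5, a chemokine that draws T cells and monocytes, a peak 1.87 kb from the TSS with 2 sites had 23.9, 20.6 and 13.4 normalized counts in unstimulated libraries and 187, 214 and 126 after LPS (3.20 ± 0.27, adjusted p = 1.09e-18, edgeR). At Gbp7, an interferon-induced GTPase, a peak 2.52 kb from the TSS rose from 16.3, 25.8 and 15.4 to 217, 206 and 230.0 (3.49 ± 0.24). The others lay in an intron of Lpp, a LIM protein of focal adhesions (3.23 ± 0.24), 199 kb from the TSS of Serp2 (3.37 ± 0.18) and 101 kb from the TSS of Gm8991 (3.68 ± 0.22). In none of the 10 did an unstimulated library reach the lowest LPS library.

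Falls after LPS were smaller. The largest was at chr15:85960826-85961900, in an intron of Gramd4 and 21.5 kb from the TSS of Cerk, which encodes ceramide kinase. Its normalized counts were 88.0, 189 and 147 in unstimulated and 18.1, 12.2 and 20.2 in LPS libraries (-3.08 ± 0.25, adjusted p = 3.32e-19, edgeR). The next 4 falls were at intronic peaks of Cdh23, a cadherin (-1.90 ± 0.22), and Odz4, a teneurin (-1.86 ± 0.23), at an intergenic peak 15.4 kb from Ch25h, which encodes cholesterol 25-hydroxylase (-1.65 ± 0.16), and at an exonic peak of Rgs11, a regulator of G protein signalling (-1.62 ± 0.24). The Ch25h peak had 302, 302 and 429 counts without LPS and 87.2, 139.8 and 103 with it. No library of either group overlapped at these 5 peaks.

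Members lay within 25 kb of a TSS of 37 of the 69 genes in a list of NF-kappaB subunits, regulators and targets, 58 peaks in all. LPS raised 37 of the 58 (63.8%, background 11.1%), with a median log2 fold change of 0.92. Peaks without a kappaB site near genes of the list also rose often, 391 of 779 (50.2%, median 0.67), and the difference between these shares was not tested.

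Neither of the kappaB peaks near subunit genes was called after LPS. A highly accessible peak 11.4 kb from Rela, the gene of the transactivating subunit p65, had 602, 642 and 837 normalized counts in unstimulated libraries and 819, 779 and 706 after LPS (0.15 ± 0.13, adjusted p = 0.456, edgeR), and the groups overlapped. The peak near Relb, a subunit of the non-canonical branch, stayed between 14.6 and 26.8 in both groups (-0.28 ± 0.36, adjusted p = 0.613). Peaks without a site near the 5 subunit genes did respond, 34 of 76 being higher.

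Among inhibitors and feedback genes 6 of 11 peaks rose (54.5%, background 11.1%), beside 53 of 107 peaks without a site (49.5%). The largest was at chr12:56584705-56586420, 8.07 kb from Nfkbia, which encodes the inhibitor IkappaB-alpha. It had 81.7, 107 and 141 normalized counts in unstimulated and 922, 958 and 947 in LPS libraries (3.09 ± 0.17, adjusted p = 1.21e-30, edgeR), a change without overlap. A peak in an intron of Nod2, 16.8 kb from Cyld, a deubiquitinase that damps NF-kappaB signalling, rose from 57.8, 44.4 and 43.2 to 105, 98.5 and 89.8 (1.02 ± 0.23, adjusted p = 0.000273), and an 8240-bp peak of Tnip1, whose product works with A20, had 0.69 ± 0.14, adjusted p = 2.58e-05. The peaks named for Nfkbid, Nfkbiz and Bcl3, atypical IkappaB proteins that act in the nucleus, did not pass the call, with log2 fold changes of 0.06 ± 0.21, 0.57 ± 0.44 and 0.16 ± 0.31.

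Cytokine genes had 10 peaks, of which 7 rose (70%, background 11.1%), beside 71 of 137 peaks without a site (51.8%). Beside Il12b, a peak with 2 sites 15.6 kb from Csf1, the gene of macrophage colony-stimulating factor, went from 85.5, 82.6 and 86.5 to 390.1, 345 and 333 normalized counts (2.07 ± 0.18, adjusted p = 4.33e-18, edgeR). The peak near Il1a, which encodes interleukin 1 alpha, had 1.35 ± 0.16, adjusted p = 6.33e-12 and the peak near Csf2, the gene of granulocyte-macrophage colony-stimulating factor, 1.08 ± 0.14, adjusted p = 4.90e-10. Chemokine genes had 10 peaks, 7 of them higher (70%), beside 44 of 95 peaks without a site (46.3%). Near Cxcl2, a neutrophil chemokine, counts were 39.0, 57.8 and 38.1 without LPS and 252, 325 and 302 with it (2.69 ± 0.21, adjusted p = 2.08e-20). The most accessible Ccl5 peak, 4.70 kb from the TSS, had 2.46 ± 0.16, adjusted p = 1.40e-25, and the peak near Cxcl10, an interferon-induced chemokine, 1.63 ± 0.14, adjusted p = 4.22e-18. The 4167-bp peak near Cxcl1 had 264, 284 and 216 against 317, 294 and 301 (0.26 ± 0.14, adjusted p = 0.176), and the single peak shared by Cxcl3 and Cxcl5 had -0.51 ± 0.47, adjusted p = 0.456.

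Survival genes had 11 peaks, 7 of them higher (63.6%, background 11.1%), beside 60 of 101 peaks without a site (59.4%). At Cflar, which encodes the caspase-8 regulator c-FLIP, counts rose from 214, 239 and 301 to 875, 943 and 833 (1.81 ± 0.14, adjusted p = 1.61e-20, edgeR). Peaks in Bcl2a1a (3.01 ± 0.23) and Bcl2a1d (2.41 ± 0.29), anti-apoptotic Bcl2 relatives, also rose, but these genes are near-identical copies whose reads may be split or discarded, so their values are uncertain. The peak near Ier3, an early response gene, rose by less (0.70 ± 0.14, adjusted p = 5.36e-05). Peaks near Birc2 and Birc3, inhibitor of apoptosis genes, and Bcl2l1 did not pass the call (-0.03 ± 0.18, 0.79 ± 0.38 and -1.04 ± 0.45). Of 8 peaks near adhesion and costimulation genes 5 rose (62.5%), beside 52 of 112 peaks without a site (46.4%). The 5 included 2 at Cd40 and the peak over the UTR of Cd274, which encodes PD-L1 (2.56 ± 0.25, adjusted p = 1.92e-15), while the peaks named for Cd86 and Icam1 did not pass (-0.05 ± 0.41 and -0.31 ± 0.46). All 3 peaks near receptor and signalling genes rose, with 2.18 ± 0.18 near Socs3, a feedback inhibitor of cytokine receptors, 0.84 ± 0.14 near Tlr2 and 0.76 ± 0.17 near Irf1. Of the peaks without a site near these genes 45 of 104 rose (43.3%). Some of the calls near genes of the NF-kappaB list changed when a single replicate was left out. Without replicate 1 the Ier3 peak was at 0.45 and the Bcl2a1b peak at 0.75, without replicate 3 the Irf1 peak was at 0.46 and the Ccl22 peak at 0.99, the Bcl2a1b peak was at 0.69 without replicate 2, and the Vcam1 peak (1.10 ± 0.40 in all libraries) lost its call in each of the 3 fits (0.99 to 1.18). The Birc3 peak gained a call without replicate 1 (1.56) and the Bcl2l1 peak without replicate 3 (-1.44). Under total-count scaling the Tnip1 peak was at 0.46, the Ier3 peak at 0.48 and the Vcam1 peak at 0.87, none of them called.

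**Figure D3:**
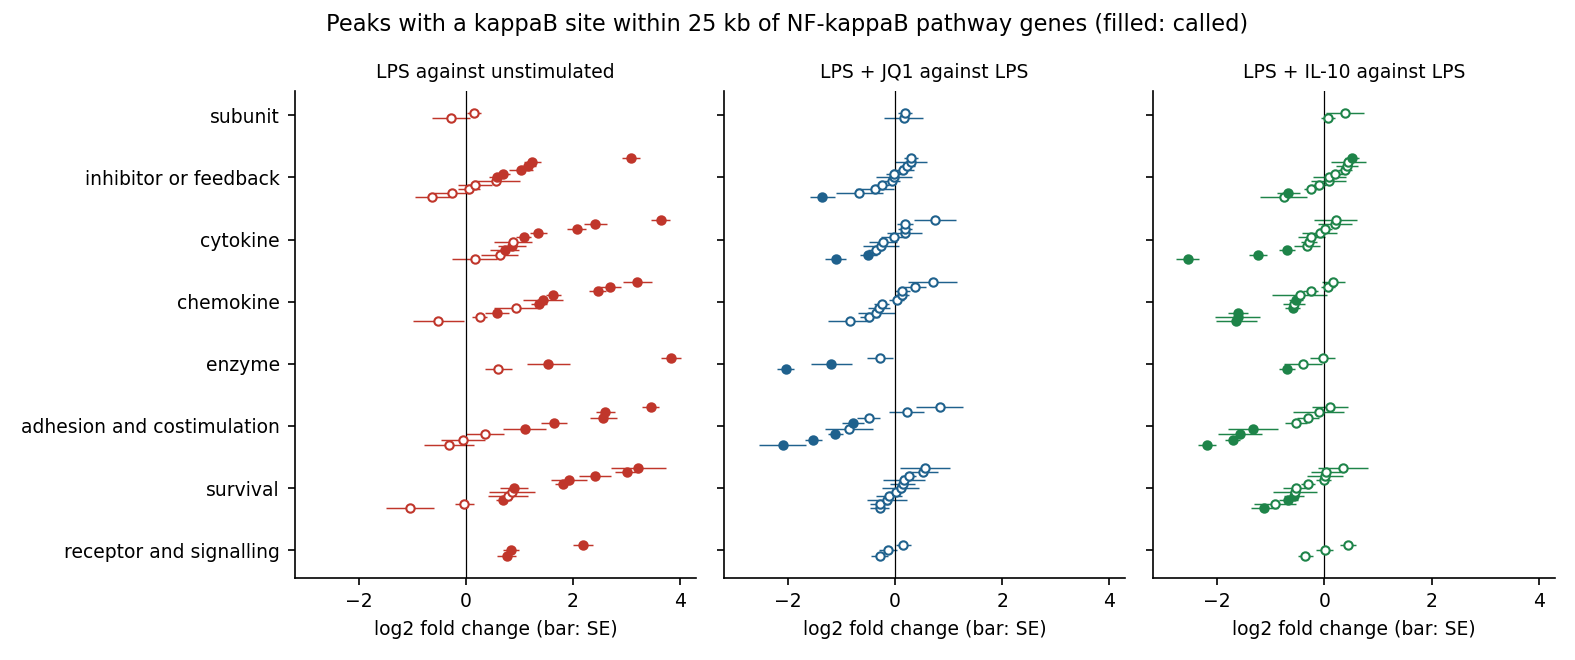
Log2 fold change (x axis, bars are standard errors) of each kappaB peak within 25 kb of a gene of the NF-kappaB list, grouped by role (y axis), for LPS against unstimulated (left), and for (+)-JQ1 (middle) and IL-10 (right) added to LPS against LPS alone, with called peaks filled. An enzyme peak (Irg1, 3.83) and a cytokine peak (Il12b, 3.63) lie furthest to the right after LPS, and a cytokine peak (Csf1, -2.55) furthest to the left with IL-10.

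Other gene lists were counted in the same way. Near interferon-stimulated genes 9 of 13 kappaB peaks rose after LPS, with log2 fold changes of 3.04 ± 0.17 at 11.0 kb from Rsad2, the antiviral protein viperin, and 2.22 ± 0.34 near Irf7, a transcription factor of interferon signalling. Peaks without a site near these genes also rose, 170 of 242. Near macrophage identity genes 4 of 16 kappaB peaks rose and 0 fell, with a median log2 fold change of -0.17, whereas 22 of 238 peaks without a site rose (9.24%) and 38 fell (16.0%), beside backgrounds of 11.1% and 11.0%.

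The members differed among themselves by the letters of the site. Of 8084 tested members with 1 site, those with T at both pyrimidine positions (bases 7 and 8, counted from the first G) rose after LPS in 721 of 2928 cases (24.6%). With T then C the count was 332 of 1977 (16.8%), with C then T 220 of 1985 (11.1%) and with C at both positions 139 of 1194 (11.6%). Where matches overlapped, on either strand, the reading with most T at these bases was used. Under this rule the shares with C at base 7 were close to the background of 11.1%. The shares under another rule were not tested. By GC content of the window, the shares of T, T and C, C members that rose were 32.8% and 21.3% in the low tercile (under 43.6% GC), 26.5% and 15.5% in the middle tercile and 17.6% and 8.41% in the high tercile (over 48.6% GC). The same letters ordered the falls under both agents. IL-10 before LPS lowered 10.5% of T, T members and 4.10% of C, C members (background 4.65%). (+)-JQ1 before LPS lowered 6.42% and 3.43% (background 3.55%). The shares of C, C members lay close to both backgrounds.

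At single spellings of the site the spread was wider. Sequences are written from the guanines, with the 5 variable bases (positions 4 to 8) in capitals, and a site that reads as a match on both strands was entered once. On the other strand gggGTTTCcc (46 of 175 higher) and gggGATTCcc (25 of 110) read as C, C, though counted as T, C. The same holds for gggGAATCcc (30 of 150) and gggGTATCcc (4 of 39), so both shares depend on the reading chosen. Of 53 spellings with at least 50 members, 36 had a share of rises above 11.1% and 11 above 2 times that value. The spellings with the highest and the lowest shares are shown because they span the response of the whole set.
Highest share, 74 of 180 members higher after LPS (41.1%): gggAATTTcc
Next, 101 of 255 (39.6%): gggGATTTcc
Next, 81 of 222 (36.5%), a palindrome in its middle part: gggGAATTcc
Next, 75 of 233 (32.2%): gggAAATTcc
The immunoglobulin kappa enhancer form, 70 of 303 (23.1%): gggACTTTcc
Among the lowest, 6 of 95 (6.32%): gggAATCTcc
Next lowest, 3 of 50 (6.0%): gggGTATTcc
Next lowest, 7 of 139 (5.04%): gggATTCTcc
Lowest share, 3 of 85 (3.53%): gggGGACCcc
The spellings gggAATTTcc and gggAATCTcc differ at base 7 alone. The gggGAATTcc form also had the highest share of members that IL-10 lowered under LPS, 39 of 222 (17.6%), followed by 27 of 180 (15.0%) for gggAATTTcc.

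Number and position of sites went with the response too. A rise after LPS was called for 17.5% of members with 1 site and for 100 of 336 members with 2 (29.8%), 3 of 13 with 3 and 3 of 3 with 4. By distance of the nearest site from the peak centre the share went from 20.6% within 50 bp over 18.6%, 18.1% and 16.8% to 14.5% beyond 200 bp. The falls with LPS + JQ1 were at 7.60%, 6.38%, 4.11%, 3.85% and 4.46% across the same range (background 3.55%). Those with LPS + IL-10 were at 10.2%, 7.59%, 7.58%, 6.92% and 7.09% (background 4.65%). Intergenic members rose more often than intronic ones, 22.4% against 14.9%, and so did other distal peaks, 12.2% against 9.83%. Members in the low tercile of GC rose in 27.3% of cases, in the middle tercile in 20.3% and in the high tercile in 12.9%, with other distal peaks at 13.7%, 10.5% and 7.78%.

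Motifs of 5 other factor families were searched in the same 500-bp windows, on both strands and with overlaps allowed, including overlaps with the kappaB site. The AP-1 motif TGANTCA was in 19.0% of member windows, 19.3% of other distal windows and 12.7% of promoter windows. Members with it rose after LPS in 26.4% of cases and members without it in 16.0%, against 13.7% and 10.0% of other distal peaks. The interferon-response motif (GAAA, any 2 bases and GAAA), held by 7.09% of members, 7.46% of other distal and 6.10% of promoter windows, went with rises in 28.9% against 17.2% of members and 18.6% against 10.1% of others, and with falls under LPS + IL-10 in 17.1% against 7.30% of members and 9.56% against 4.05% of others. The PU.1 motif GAGGAAGT (6.96%, 6.98% and 4.67% of the same windows), the C/EBP motif TTGCNNAA (19.1%, 20.5% and 16.3%) and the STAT motif TTCNNNGAA (15.4%, 14.7% and 12.3%) were the other three. Members with the PU.1 motif rose after LPS in 21.3% of cases and members without it in 17.7%, while other distal peaks went the other way (9.28% and 10.9%). For C/EBP the shares were 21.1% and 17.3% of members and 11.6% and 10.5% of others, and for STAT 22.8% and 17.1% of members and 11.8% and 10.6% of others. A match describes letters, not binding.

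**Figure D4:**
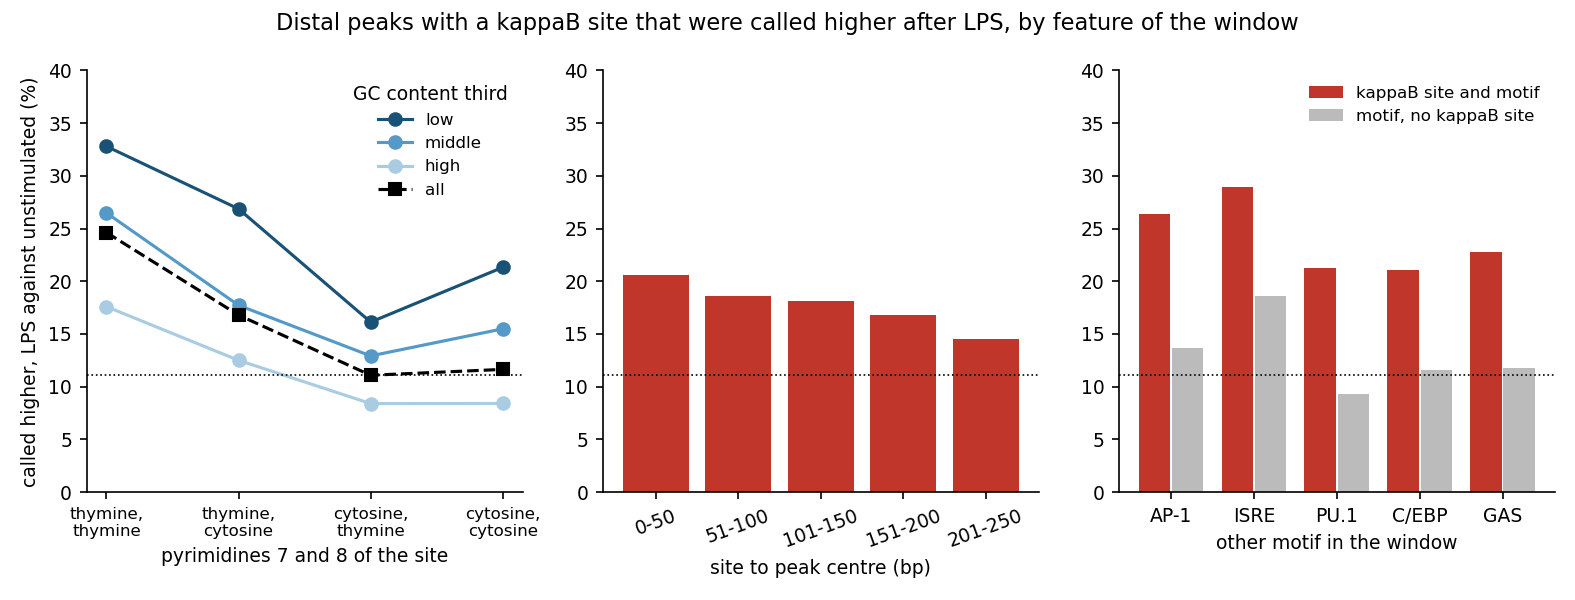
Percent of kappaB members called higher after LPS (y axis) by the bases at positions 7 and 8 of the site, within GC terciles and for all (left), by distance of the nearest site from the peak centre in bp (middle) and by another motif in the window, beside distal peaks that hold the motif without a kappaB site (right). The dotted line is the share of all distal peaks tested (11.1%), and members with T at both positions (24.6%) stand above those with C at both (11.6%). Where matches overlapped, the reading with most T at these positions was used.

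Adding (+)-JQ1 before LPS lowered 458 members (5.43%, background 3.55%) and raised 125 (1.48%, background 1.74%) against LPS alone, whereas 3.44% of other distal peaks were lower and 1.76% higher. The largest falls given here were near Fap, Aoah, Irg1 and Malt1. Near genes of the NF-kappaB list 9 of 58 kappaB peaks fell (15.5%), beside 131 of 779 peaks without a site (16.8%). The count was sensitive to single replicates, with 4.38% lower without replicate 1, 2.35% without replicate 2 and 2.57% without replicate 3 (other distal peaks 2.84%, 1.51% and 1.77%). Rises were at 1.42%, 0.474% and 0.972% in the same fits. The comparisons of both agents with LPS share the LPS libraries, so their values are given side by side. They share these libraries with LPS against unstimulated too, so a change after LPS and an opposite change with an agent are not independent.

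The largest fall was at a 2410-bp intergenic peak 12.3 kb from the TSS of Fap, which encodes a cell surface protease, chr2:62423245-62425655. LPS libraries had 445, 392 and 585 normalized counts and LPS + JQ1 libraries 85.1, 97.4 and 94.7 (-2.35 ± 0.17, adjusted p = 6.53e-21, edgeR). LPS + JQ1 values were close to the unstimulated ones of 85.5, 55.7 and 48.4, and LPS + IL-10 lay between (237, 150.2 and 158).

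At Aoah, whose product removes acyl chains from LPS, 2 intronic peaks were called lower with (+)-JQ1 and were not called with IL-10. The peak 10.8 kb from the TSS, chr13:20896066-20897443, had 27.7, 25.8 and 32.9 normalized counts in unstimulated, 170.0, 212 and 191 in LPS, 53.3, 42.0 and 43.0 in LPS + JQ1 and 205, 205 and 192 in LPS + IL-10 libraries. Its log2 fold change was -2.07 ± 0.19, adjusted p = 3.99e-15 for LPS + JQ1 and 0.07 ± 0.16, adjusted p = 0.846 for LPS + IL-10 against LPS by edgeR, and the direct comparison of the agents gave -2.14 ± 0.19, adjusted p = 2.85e-16. The second, 139 kb from the TSS, differed between the agents by -2.04 ± 0.19.

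The Irg1 peak dropped from 680.1, 507 and 559 to 202, 123 and 111 normalized counts (-2.04 ± 0.16, adjusted p = 3.74e-19, edgeR), still above every unstimulated library. A pair of peaks 50.4 and 52.0 kb from Malt1, a paracaspase in NF-kappaB signalling, fell by 1.81 and 1.85 on the log2 scale. A peak in an intron of Smu1, 16.3 kb from Dnaja1, a co-chaperone, fell too (-1.82 ± 0.28). In these falls the LPS + JQ1 libraries did not overlap the LPS libraries, and replicate 1 was the highest of the 3 at the Irg1 and Malt1 peaks.

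Other strong LPS responders were not called lower with (+)-JQ1. The Il12b peak had 569.5, 365 and 392 normalized counts in LPS + JQ1 libraries (-0.37 ± 0.14, adjusted p = 0.121, edgeR), with replicate 1 inside the LPS range and the other two below it. The Nfkbia peak had 1377, 1058 and 888 (0.23 ± 0.14, adjusted p = 0.432), the Ptgs2 peak at 97.9 kb 441, 269 and 232 (-0.36 ± 0.16, adjusted p = 0.188) and the Lpp peak 375, 173 and 196 (0.15 ± 0.18, adjusted p = 0.749). The Cd40 peak at 12.3 kb did fall, to 751, 467 and 480.1 (-1.11 ± 0.14, adjusted p = 1.48e-09).

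Rises with (+)-JQ1 under LPS were led by a peak 3.99 kb from Ugt1a6a, a glucuronosyltransferase (1.47 ± 0.19, adjusted p = 2.27e-09, edgeR). A peak 7.12 kb from Brd2, which encodes a BET protein and thus a target of the drug, rose from 75.1, 83.5 and 110.0 to 226, 236 and 234 normalized counts (1.39 ± 0.17, adjusted p = 5.28e-10). At an intronic peak of Cdkal1 the change was 1.35 ± 0.23. A peak 845 kb from Cited2 went from 21.6, 36.6 and 30.3 to 131, 60.5 and 51.7 (1.42 ± 0.29, adjusted p = 0.000393), with replicate 1 the highest, and without replicate 1 its log2 fold change was 0.73 with an adjusted p of 0.262. Members that LPS lowered were also among the rises: the Odz4, Cdh23 and Ch25h peaks rose with (+)-JQ1, at log2 fold changes of 1.30 ± 0.24, 1.20 ± 0.23 and 1.04 ± 0.16. Their falls after LPS were measured with the same LPS libraries.

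Adding IL-10 before LPS lowered 674 members (7.99%, background 4.65%) and raised 267 (3.17%, background 4.54%) against LPS, while other distal peaks were near balance at 4.46% lower and 4.62% higher. Medians were -0.09 for members and 0.01 for other distal peaks. Leaving out replicate 1, 2 or 3 gave 5.11%, 4.62% and 5.16% lower among members beside 3.15%, 2.29% and 2.59% among other distal peaks, and 2.40%, 1.78% and 1.94% higher among members. Near genes of the NF-kappaB list 17 of 58 kappaB peaks fell (29.3%) and 1 rose, beside 181 falls in 779 peaks without a site (23.2%).

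The largest fall was at a peak with 2 sites 10.1 kb from Csf1, chr3:107542718-107544363. It had 232, 205 and 156 normalized counts after LPS, 34.4, 37.0 and 30.2 with IL-10 and LPS and 40.2, 43.4 and 27.8 without stimulation (-2.55 ± 0.22, adjusted p = 4.37e-17, edgeR). LPS + IL-10 libraries thus overlapped the unstimulated ones, and LPS + JQ1 libraries (134, 80.0 and 69.9) lay between them and the LPS group.

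An intronic peak 30.2 kb into Il15, the gene of a cytokine for natural killer and memory T cells, rose with LPS from 11.3, 29.9 and 39.1 to 259, 223 and 239 normalized counts and had 54.4, 44.6 and 53.5 with IL-10 (-2.23 ± 0.21, adjusted p = 2.03e-15, edgeR) and 235, 162 and 144 with (+)-JQ1 (-0.44 ± 0.18, adjusted p = 0.167). The agents differed there by 1.80 ± 0.21, adjusted p = 6.21e-11. At Cd40 both the intronic peak with 2 sites (-2.19 ± 0.17) and the intergenic one (-1.71 ± 0.14) fell, the latter to 393, 333 and 385 normalized counts. Falls were also among the largest near Usp47, a deubiquitinase (-2.36 ± 0.24), St6galnac5, a sialyltransferase (-1.98 ± 0.24), Gm8991 (-1.96 ± 0.18) and Ralgapa2, a regulator of Ral GTPases (-1.95 ± 0.19). All of these peaks had been raised by LPS, in a comparison that uses the same LPS libraries.

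Among pathway genes IL-10 lowered the Cxcl2 peak to 102, 94.7 and 88.9 normalized counts (-1.62 ± 0.19, adjusted p = 5.34e-11, edgeR), the Il12b peak to 413, 307 and 323 (-0.70 ± 0.14, adjusted p = 0.000172), the Il6 peak to 64.9, 32.7 and 54.4 (-1.36 ± 0.26, adjusted p = 4.33e-05) and the Irg1 peak to 445, 344 and 284 (-0.71 ± 0.15, adjusted p = 0.000248). At these 4 peaks no LPS + IL-10 library reached the LPS group. The Nfkbia peak had 1089.8, 813 and 717 (-0.11 ± 0.14, adjusted p = 0.709) and the Ptgs2 peak at 97.9 kb 464, 355 and 312 (-0.07 ± 0.15, adjusted p = 0.835), both across the LPS range.

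Rises with IL-10 under LPS were led by a peak of Pfkfb3. This peak over the UTR of Pfkfb3, which encodes a regulator of glycolysis, had 12.9, 26.3 and 16.8 normalized counts with LPS and 138, 79.5 and 101 with LPS + IL-10 (2.51 ± 0.31, adjusted p = 4.03e-10, edgeR). Tgfbi, which encodes a matrix protein, had an intronic peak with 2 sites at 43.2, 43.2 and 44.9 and 185, 234 and 144 (2.09 ± 0.20, adjusted p = 2.33e-14). Peaks in Dhx8, an RNA helicase gene, and 70.9 kb from Plcl2 rose by 1.81 ± 0.19 and 1.80 ± 0.19. Near macrophage identity genes 4 of 16 kappaB peaks were higher with IL-10, 3 of them at Itgam, which encodes CD11b (1.57 ± 0.40, 1.62 ± 0.31 and 1.84 ± 0.52), and 1 at Mrc1, the mannose receptor (0.86 ± 0.22). Of 238 peaks without a site near these genes 48 were higher (20.2%), beside a background of 4.54%. The Itgam peaks were low in count, with means of 10.3, 15.0 and 4.98 normalized counts after LPS and 30.0, 47.5 and 18.7 with LPS + IL-10. Those at chr7:135214163-135214783 and chr7:135214861-135215792 lay side by side.

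**Figure D5:**
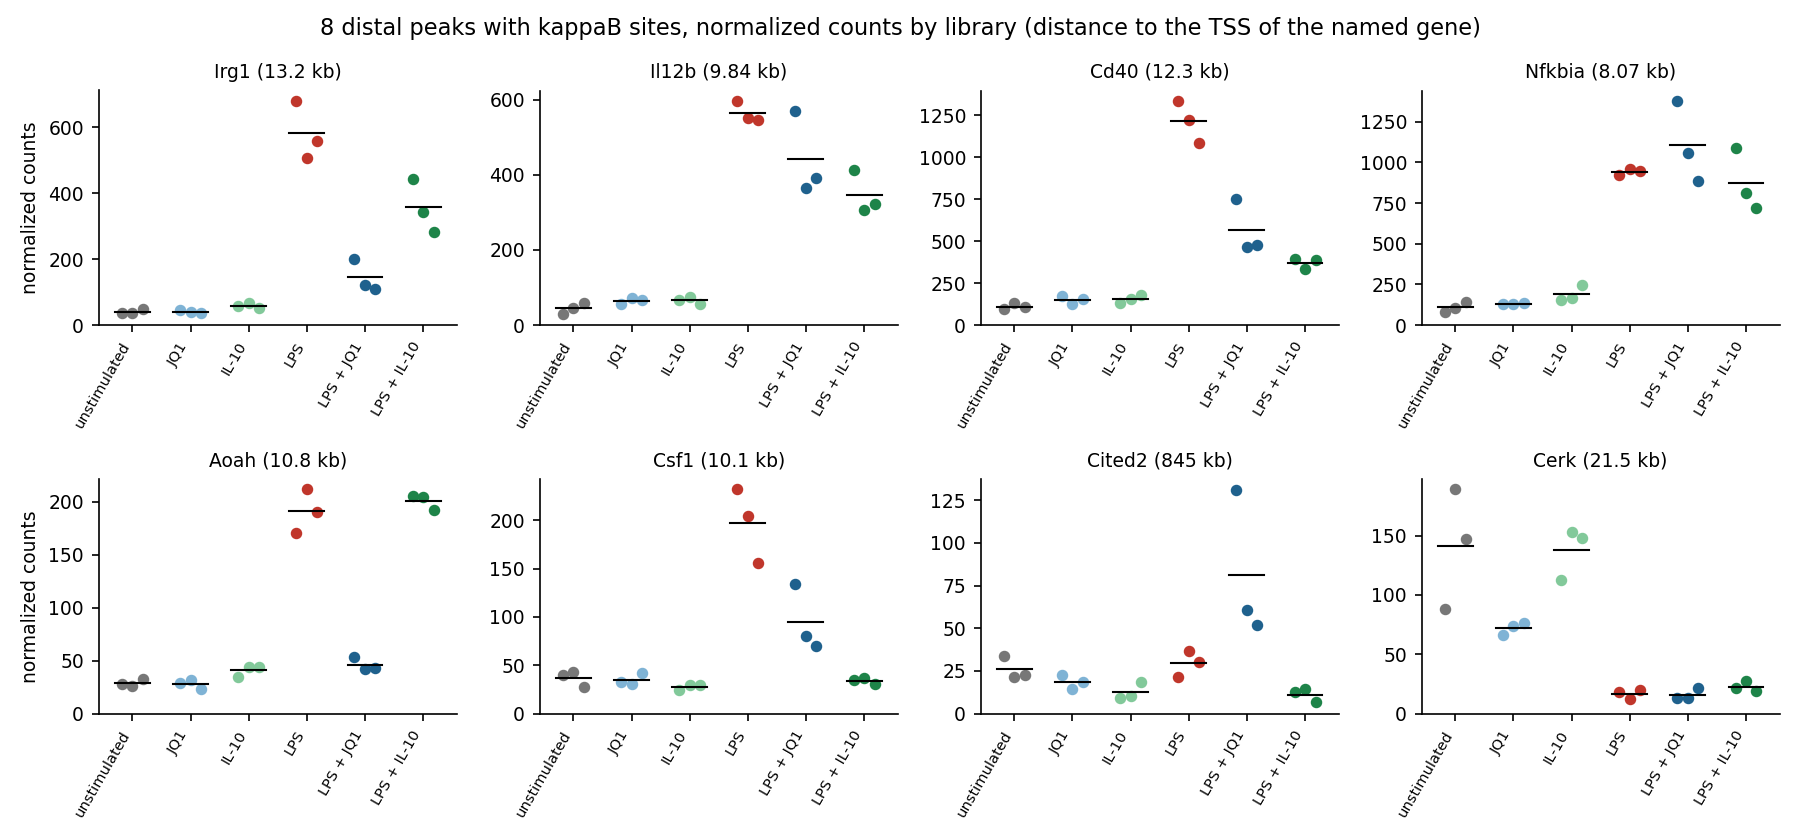
Normalized counts (y axis, linear, a separate scale in each panel) in each library of the 6 conditions (x axis) at 8 kappaB peaks, with points for the 3 libraries and a line for the group mean. The Aoah peak is low with LPS + JQ1 (42.0 to 53.3) but not with LPS + IL-10 (192 to 205), and the Csf1 peak is lowest among the LPS groups with LPS + IL-10 (30.2 to 37.0).

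Compared directly, LPS + JQ1 libraries were higher than LPS + IL-10 libraries at 435 members (5.16%, background 3.07%) and lower at 370 (4.39%, background 5.0%). The higher count was 3.26%, 2.23% and 3.96% and the lower count 3.55%, 2.34% and 2.64% without replicate 1, 2 and 3. Csf1, Il15 and Cited2 peaks were on the higher side (1.44 ± 0.23, 1.80 ± 0.21 and 2.83 ± 0.34), and Pfkfb3, Aoah, Tgfbi and Irg1 peaks on the lower side (-2.91 ± 0.32, -2.14 ± 0.19, -1.98 ± 0.20 and -1.34 ± 0.16). At the Il12b peak the agents were not called different (0.33 ± 0.14, adjusted p = 0.138, edgeR).

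The interaction of LPS with each agent, its effect under LPS minus its effect without LPS, was positive for (+)-JQ1 at 49 members (background 0.658%) and negative at 158 (background 1.33%). For IL-10 it was positive at 145 members (background 2.15%) and negative at 471 (background 3.33%), which are 1.72% and 5.58% of tested members beside 0.581% and 1.87% for (+)-JQ1. Both interactions use the same unstimulated and LPS libraries. Without replicate 2 the shares were 0.202% and 1.03% for IL-10 and 0.0237% and 0.0356% for (+)-JQ1, without replicate 1 they were 0.451% and 3.05%, and 0.0593% and 0.569%, and total-count scaling gave 5.56% and 2.64%, and 2.26% and 0.533%. The Cd40 peak at 12.3 kb had the most negative named term for IL-10 (-2.19 ± 0.22, adjusted p = 7.86e-12, edgeR) and the Irg1 peak that for (+)-JQ1 (-2.05 ± 0.29, adjusted p = 3.38e-06).

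Without LPS, Brd2 and Ugt1a6a peaks led the rises with (+)-JQ1 and Plcl2 and Nfil3 peaks those with IL-10. (+)-JQ1 alone raised 389 (4.61%, background 4.34%) and lowered 293 (3.47%, background 3.39%), and IL-10 alone raised 407 (4.82%, background 4.33%) and lowered 360 (4.27%, background 3.85%). These counts depended on single replicates and the scaling. Without replicate 2 they were 0.996% and 0.569% for (+)-JQ1 and 0.925% and 0.605% for IL-10, without replicate 1 they were 3.30% and 1.27%, and 2.73% and 0.617%, and total-count scaling gave 0.865% higher and 16.2% lower for (+)-JQ1 and 1.52% and 10.3% for IL-10. The Brd2 peak rose with (+)-JQ1 alone from 41.5, 53.7 and 60.7 to 152, 149 and 148 normalized counts (1.51 ± 0.19, adjusted p = 1.61e-08, edgeR), and the Ugt1a6a peak by 1.25 ± 0.18. The largest falls were intronic, at Dennd1a (-1.09 ± 0.24) and Cdyl2 (-1.01 ± 0.23). IL-10 alone raised the Plcl2 peak from 69.1, 84.6 and 55.6 to 258, 291 and 298 (2.01 ± 0.18, adjusted p = 8.89e-16), a peak 43.3 kb from Nfil3, a transcription factor induced by IL-10, from 40.2, 21.7 and 27.8 to 103, 101 and 122 (1.88 ± 0.22, adjusted p = 2.02e-10), and the Socs3 peak by 1.09 ± 0.19. Its largest falls were near Gm10479 (-1.28 ± 0.29), where unstimulated replicate 1 alone was high at 152 against 55.7 and 36.0 and the change was -0.65 with an adjusted p of 0.295 without replicate 1, and near Angpt2 (-1.04 ± 0.25). Without replicate 2 the Angpt2 peak was at -0.85 and the Cdyl2 peak at -0.94, neither called.

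The 3 members with 4 sites, of which the Anks1b and Gm8221 stretches are printed above, were of low accessibility. Near Anks1b normalized counts were 12.6, 11.4 and 3.09 in unstimulated, 32.8, 18.8 and 18 in LPS, 7.21, 4.10 and 8.01 in LPS + JQ1 and 12.4, 4.35 and 4.31 in LPS + IL-10 libraries, with log2 fold changes of 1.39 ± 0.48, adjusted p = 0.0243 for LPS and -1.82 ± 0.50, adjusted p = 0.0123 for LPS + JQ1 (edgeR). Near Gm8221 they were 8.80, 16.5 and 9.26, 36.2, 21.6 and 28.1, 20.2, 7.18 and 7.28 and 21.9, 23.9 and 14.7 (1.29 ± 0.42, adjusted p = 0.0156 and -1.42 ± 0.43, adjusted p = 0.0269). The peak 682 kb from Galr1 had 0.85 ± 0.28 and -1.23 ± 0.29. All 3 rose after LPS and fell with (+)-JQ1, in comparisons that share the LPS libraries and so are not independent. The LPS calls were lost without replicate 1 (1.34 near Anks1b, 0.94 near Gm8221 and 0.54 near Galr1) and, near Anks1b and Gm8221, without replicate 3 (1.11 and 1.16). All 3 LPS calls were also lost under total-count scaling (1.14 near Anks1b, 1.06 near Gm8221 and 0.61 near Galr1), and that near Anks1b under DESeq2 (adjusted p = 0.0502).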

How the data were processed

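ATAC-seq of 18 libraries (6 conditions with 3 libraries each, from 3 Il10-/- mice) was analysed. The authors aligned reads to mm9 with bowtie2 in PEPATAC, called peaks with MACS2 in each library, merged them and classed each peak as promoter (from 1000 bp before to 100 bp after a TSS) or distal with ChIPseeker. The deposited values are raw counts per peak and library, without normalization. The counting tool and any shift for transposase insertion are not given in the sources used here. Peak coordinates are printed as the deposited tables list them, and site coordinates come from a match to the NCBIM37 (mm9) sequence. A set of 6 count columns that matched no sample was not used.

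Groups came from the labels. Counts of all peaks were fitted with edgeR 4.0.16 in R 4.3.3 (filterByExpr, TMM, quasi-likelihood test, all 6 groups, no block), with Benjamini-Hochberg adjustment over all tested peaks. Members and lists were chosen with earlier results of these data known. Named peaks are the 10 largest rises and 5 largest falls after LPS, the 8 largest falls and 4 largest rises for each agent under LPS, and the 2 largest in each direction for each agent alone, all called, with a mean of at least 50 normalized counts and 1 direction in 3 pairs. The most accessible member within 25 kb of each gene of the NF-kappaB list and the 3 members with most sites were added. Of the peaks this rule named, 1 is not reported here. GENCODE models of protein-coding genes of the same build gave the TSS distances and the intergenic, intronic, exonic and UTR classes. Other genes were not used. The labels call the same-numbered libraries biologically matched. Deviations from the group means correlated by 0.0057 on average between libraries of 1 number (45 pairs, 0 above 0.1) and by -0.0029 between the others (90 pairs). The fit was checked on simulated counts. Alternatives were DESeq2 1.42.0, other scalings, no low-count filter, a replicate block, sequencing lane, fewer groups, the distal table alone, a threshold of 0.01, each replicate left out, sites within 100 bp and sites with T at bases 7 and 8.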

Additional observations from a re-analysis of the deposited data

Results flagged for a closer look

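These members drew attention since the effect of an agent differed between cells with and without LPS. The interaction was tested in edgeR's fit and called where the agent's effect under LPS differed from its effect without LPS. For (+)-JQ1 it was positive at 49 members (0.581%, background 0.658%) and negative at 158 (1.87%, background 1.33%). For IL-10 it was positive at 145 (1.72%, background 2.15%) and negative at 471 (5.58%, background 3.33%). Without replicate 2 the positive and negative shares were 0.0237% and 0.0356% for (+)-JQ1 and 0.202% and 1.03% for IL-10. Total-count scaling moved the median interaction term of all tested distal peaks by 0.27 for each agent. All values that follow are log2 interaction terms of named peaks that passed the call in edgeR's fit to all libraries. These terms of single peaks were not checked under the alternatives.

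For (+)-JQ1 the most negative terms were -2.05 at the Irg1 peak, -2.01 at the Aoah peak 10.8 kb from the TSS, -1.73 at the Aoah peak 139 kb from the TSS, -1.65 at the Fap peak and -1.57 at the Cd40 peak 12.3 kb from the TSS. Then came -1.46 at the Malt1 peak, -1.43 at the Usp47 peak, -1.15 at the Gm8991 peak, -1.09 at the Serp2 peak, -0.98 at the Nfil3 peak and -0.95 at the Cd40 peak 2.78 kb from the TSS. These were followed by -0.88 at the Il12b peak, -0.66 at the Cxcl10 peak and -0.64 at the Tlr2 peak. Positive terms were 1.13 at the Dennd1a peak, 1.15 at the Ch25h peak, 1.504 at the Cdh23 peak and 1.88 at the Cited2 peak.

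For IL-10 the most negative terms were -2.19 at the Cd40 peak 12.3 kb from the TSS, -2.12 at the Csf1 peak 10.1 kb from the TSS, -1.97 at the Ralgapa2 peak, -1.96 at the Usp47 peak, -1.92 at the Ccl22 peak and -1.87 at the Gbp7 peak. Then came -1.84 at the Il15 peak, -1.76 at the Cd40 peak 2.78 kb from the TSS, -1.68 at the Nfil3 peak, -1.63 at the St6galnac5 peak, -1.60 at the Gm8991 peak and -1.48 at the Galr1 peak. These were followed by -1.43 at the Dnaja1 peak, -1.23 at the Il12b peak, -1.23 at the Fap peak, -1.22 at the Irg1 peak, -1.20 at the Ccl5 peak and -1.16 at the Cxcl2 peak. Smaller values were -1.02 at the Csf1 peak 15.6 kb from the TSS, -0.97 at the Cxcl10 peak, -0.96 at the Cflar peak, -0.89 at the Nfkbia peak, -0.83 at the Tlr2 peak and -0.78 at the Ier3 peak. Positive terms were 0.94 at the Dhx8 peak, 0.95 at the Ugt1a6a peak, 1.24 at the Tgfbi peak and 2.35 at the Pfkfb3 peak. At the Nfil3 peak both interactions were negative, and either agent alone raised it (0.92 ± 0.24 for (+)-JQ1 and 1.88 ± 0.22 for IL-10) while neither was called to change it under LPS (-0.07 ± 0.17 and 0.20 ± 0.17).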

How the results depend on the processing

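The order of members against other distal peaks held in all 14 alternatives for rises and falls after LPS, for falls with LPS + JQ1, for both directions with LPS + IL-10 and for both directions between the agents. So it did for rises with IL-10 alone and both signs of the IL-10 interaction. It held in 13 for rises with LPS + JQ1, in 11 and 9 for rises and falls with JQ1 alone and in 12 for falls with IL-10 alone. For positive and negative JQ1 interactions it held in 11 and 13. Percentages below are of members. With the replicate block 18% rose and 8.89% fell after LPS, and the block changed none of the 81 calls of named peaks refitted under it, each in the comparison it was named for, and moved no count by over 1.5 times. Total-count scaling gave 17.6% lower after LPS, 0.865% higher and 16.2% lower with JQ1 alone, 1.52% and 10.3% with IL-10 alone, and interaction terms of 2.26% positive and 0.533% negative for JQ1 and 5.56% and 2.64% for IL-10. An adjusted p under 0.01 left 4.35% lower after LPS, 0.853% higher and 3.14% lower with LPS + JQ1, 2.06% and 5.16% with LPS + IL-10, 1.09% lower with JQ1 and 1.08% with IL-10 alone, 3.15% and 2.71% between the agents, and interactions of 0.107% and 0.439% for JQ1 and 0.593% and 3.02% for IL-10. DESeq2 called 2.09% lower with JQ1 alone. The distal table alone gave 1.74% for the same count, 0.249% positive interactions with JQ1 and 1.07% with IL-10. Only the groups compared gave JQ1 interactions of 0.345% and 1.08%.

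Leaving out 1 replicate at a time gave these lowest and highest values over the 3 fits, which have fewer libraries. After LPS 3.90% to 7.59% were lower. With LPS + JQ1 0.474% to 1.42% were higher and 2.35% to 4.38% lower, and with LPS + IL-10 1.78% to 2.40% and 4.62% to 5.16%. JQ1 alone gave 0.996% to 6.18% higher and 0.569% to 3.47% lower, and IL-10 alone 0.925% to 6.58% and 0.605% to 3.94%. Between the agents 2.23% to 3.96% were higher and 2.34% to 3.55% lower. Interactions were 0.0237% to 0.735% positive and 0.0356% to 2.29% negative for JQ1, and 0.202% to 1.21% and 1.03% to 5.06% for IL-10.

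The median log2 fold change of members minus that of other distal peaks after LPS was 0.10, 0.15 with sites within 100 bp of the centre and 0.24 with T at bases 7 and 8. For LPS + JQ1 it was -0.047, -0.0778 and -0.0806 in the same order, for LPS + IL-10 -0.0986 and, with T at both bases, -0.164, and for the IL-10 interaction -0.072 and -0.158. Leave-one-out ranges were -0.0559 to -0.0524 for LPS + JQ1 and -0.0417 to -0.00429 for JQ1 alone. Of 891 values of named peaks under alternatives 852 kept direction and side of the threshold, 25 lost the call (17 with a replicate left out, 6 under total counts and 2 under DESeq2) and 3 gained it. Another 11 changed direction, all at peaks not called in edgeR's fit to all libraries, and 0 values of called peaks changed direction. The cause of the lost calls was not tested. Few counts lay behind the peaks near Anks1b and Gm8221, with standard errors of 0.48 and 0.42 for LPS.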

Other observations

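The kappaB consensus also lay in 2618 promoter peaks, which belong to no comparison above. LPS raised 489 of them (18.7%) and 4748 of 34048 promoter peaks without a site (13.9%). The letters at bases 7 and 8 went the same way as in distal peaks over a narrower range, with 22.0% of promoter peaks higher for T, T, 19.5% for T, C, 15.0% for C, T and 16.8% for C, C. IL-10 before LPS lowered 5.39% of promoter peaks with a site and 3.83% of those without. (+)-JQ1 alone raised 28.8% and 22.5% of them. Promoter shares were not counted under total-count scaling, which moved the median log2 fold change of tested distal peaks by -0.28 for (+)-JQ1 alone.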
